A study of Mus musculus with 14 samples.

Results

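Tumor-high DP cells carried the DP sort label and had strong melanoma pigment-gene expression, and they were compared here between samples whose names begin with P and samples whose names begin with C. A DP cell was counted as tumor-high where Pmel, Dct, Tyrp1 and Mlana together reached 5000 CPM, which are counts scaled to 1000000 per cell or sum. This rule took 262 of the 648 cells of the series, out of 435 DP cells in the 8 samples compared. The P samples gave 91 cells, with 45 in P1, 31 in P2 and 15 in P4. The C samples gave 171 cells, with 30 in C1L, 12 in C1N, 23 in C1R, 45 in C2R and 61 in C3R. A further C sample, C2N, had 15 DP cells and 0 tumor-high ones, and was left out.

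All P and C samples came from female C57BL/6J mice, 6 to 8 weeks old, that carried fluorescently labelled B16F10 cells and received no drug. Single cells from blood or lung were sorted by FACS on unnamed markers of tumor and of host, and each was read by Smart-seq2, a full-length single-cell RNA method. The labels do not say what P and C stand for. They list DP cells alone for the P samples and CTC (circulating tumor cells), DP and WBC (white blood cells) among the C samples, and they give the sample name as the batch. Nothing in them ties a sample to one animal, and the spread behind each p-value may be partly technical. The names C1L, C1N and C1R share the part C1, whose meaning is not given, and each was treated as a separate sample. Batch and sample cannot be told apart.

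B16F10 is a pigmented melanoma line of the C57BL/6J strain that seeds the lung when it enters the blood. Pigment cells build melanosomes, organelles in which tyrosinase-family enzymes make melanin on fibrils of the Pmel protein, and the regulators Mitf and Sox10 drive this program. Tumor cells in transit can meet loss of anchorage, shear, platelets and phagocytes, and early-response and heat-shock genes are known to react to such stress and also to the handling of cells.

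Of the 7 melanocyte markers, 4 are the genes of the rule and say nothing more about the label. The 3 others were also found: Tyr and Sox10 had counts in all 262 cells, and Mitf in 259 of them. WBC of naive mice also had counts of all 3, so detection alone does not set the cells apart. The 8 samples had 548 to 1065 CPM of Tyr, 118 to 287 of Mitf and 201 to 443 of Sox10. Before scaling, naive WBC had 2.18, 6.77 and 0.414 CPM of these genes. DP cells under the threshold had 1.96, 19.8 and 9.51 CPM in P samples and 27.0, 30.5 and 65.9 CPM in C samples, also before scaling. The median cell's sum of the 4 rule genes was 30326 CPM in P1, 30359 in P2 and 30444 in P4. It was 30829 CPM in C1L, 24805 in C1N, 29169 in C1R, 34160 in C2R and 14512 in C3R. The cells were selected on these values, which are therefore a description. C3R had the lowest median. The 5 cells just inside the threshold had 5023 to 6228 CPM, and the 5 just outside had 3737 to 4942 CPM. Between 2000 and 5000 CPM lay 18 DP cells, and 24 lay between 5000 and 10000 CPM.

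**Figure D1:**
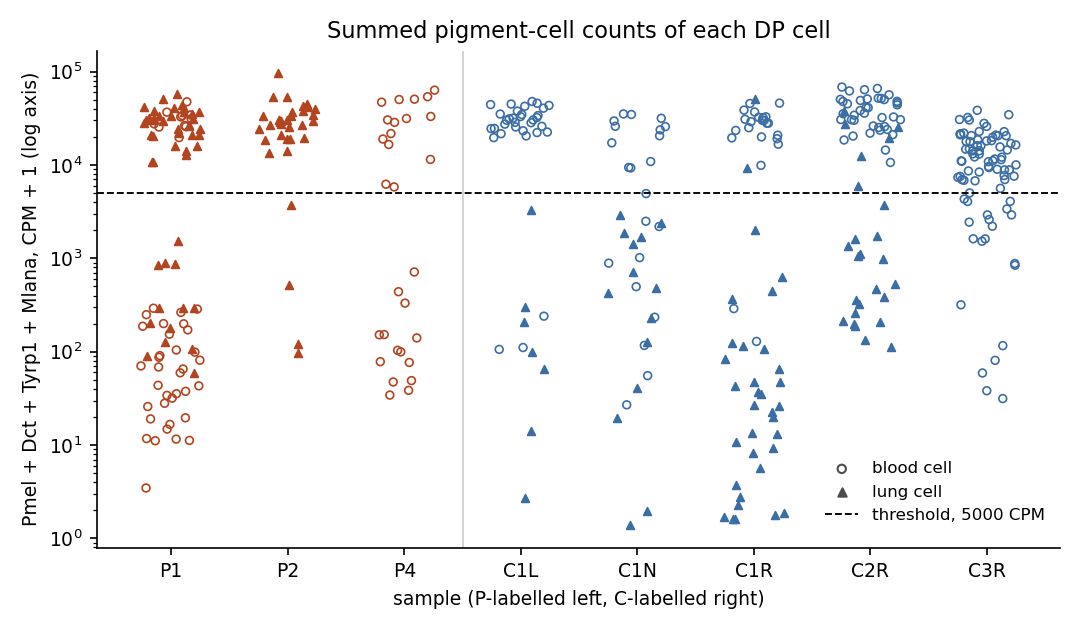
Summed CPM + 1 of Pmel, Dct, Tyrp1 and Mlana (log axis) in each of the 435 DP cells, by sample, with open circles for blood cells, filled triangles for lung cells and a dashed line at the 5000 CPM threshold. Lung cells make up most points above the line in P1 and all of them in P2, while nearly all C points above it are blood cells.

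The tissues differed between P and C samples. Lung gave 71.4% of the tumor-high cells of the P samples and 4.68% of those of the C samples. P1 had 11 cells from blood and 34 from lung, P2 had lung cells alone and P4 blood cells alone. Of the C samples, C1R had 2 lung cells and C2R 6, and the rest had blood cells alone. Blood cells were therefore compared on their own as a check, with 26 cells of P1 and P4 against 163 cells of the 5 C samples. Counts were summed over the cells of a sample, so more cells with a transcript and more transcript per cell cannot be told apart in the sums. The sums held 1336, 576 and 417 Mcounts (units of 1000000 counts) in P1, P2 and P4, and 345 to 1131 Mcounts in the C samples.

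No gene passed the test between P and C. In the quasi-likelihood test of edgeR, adjusted by Benjamini-Hochberg, 0 of 12893 genes (0%) had an adjusted p under 0.05 in either direction, and the smallest adjusted p was 0.668. At an unadjusted p under 0.05 stood 929 genes (7.21%), of which 430 (3.34%) were higher in P and 499 (3.87%) lower. The CPM of the samples did not overlap, with all P samples on one side, for 306 genes higher in P (2.37%) and 373 lower (2.89%). The P samples also differed among themselves as much as from the C samples. Over 7017 genes of at least 20 CPM, the median absolute log2 difference was 0.27 to 0.44 between pairs of P samples, 0.23 to 0.44 between a P and a C sample, and 0.23 to 0.36 between pairs of C samples. DESeq2, run as an alternative, called 16 genes higher in P (0.124%) and 110 lower (0.853%). All 126 had an unadjusted edgeR p under 0.05. A mean under 20 CPM in both groups was found for 82 of the 110 lower ones and 4 of the 16 higher ones. The samples did not overlap for 65 of the 110 and 15 of the 16. The genes below are therefore described by their values, and none of them passed edgeR's adjusted threshold.

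Of genes with at least 20 CPM and no overlap, the 5 with the smallest p that were higher in P were Rhot1, Hspe1, Ccn1, Vps26a and Timp3. Rhot1, which encodes Miro1, a GTPase of the outer mitochondrial membrane that links mitochondria to motor proteins, had 128, 121 and 133 CPM in P1, P2 and P4. It had 79.6 CPM in C1L, 89.1 in C1N, 64.0 in C1R, 68.0 in C2R and 72.5 in C3R. All P samples lay above all C samples, as the choice required, with a log2 difference of 0.77 ± 0.15 (SE; edgeR adjusted p = 0.668, DESeq2 adjusted p = 0.00248). The gene lies on chromosome 11 of GRCm38.

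Ccn1, on chromosome 3, differed most in size among these 5 genes. It encodes a secreted matrix protein of the early response to serum and mechanical stress. Its level was 399, 361 and 333 CPM in P1, P2 and P4, against 120.4, 20.8, 76.8, 115 and 117 CPM in C1L, C1N, C1R, C2R and C3R. The P mean of 365 ± 33.2 CPM (SD, n = 3) was about 4.05 times the C mean of 89.9 ± 42.5 CPM (SD, n = 5), a log2 difference of 2.02 ± 0.43 (SE; edgeR adjusted p = 0.668). A single cell held 24.1%, 23.7% and 55.2% of the Ccn1 counts of P1, P2 and P4. Within P1 the level was 619.6 CPM in lung cells and 72.0 CPM in blood cells, before scaling. In blood cells alone the log2 difference was 1.19, with an unadjusted edgeR p of 0.0923. In CTC of 5 C samples Ccn1 ranged between 13.8 and 602 CPM, before scaling.

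Vps26a, a subunit of the retromer that returns cargo from endosomes, had 165, 238 and 205 CPM in P1, P2 and P4, against 109 to 147 CPM in the C samples. Timp3, an inhibitor of matrix metalloproteinases, had 22.7, 28.4 and 29.0 CPM in the P samples, against 7.64 to 13.1 CPM in the C samples. One cell held 55.6% of the Timp3 counts of P4 and 66.2% of those of C1N. In lung cells alone, where 65 P cells of 2 samples were set against 8 C cells of 2 samples, the difference of Timp3 turned to -0.98 on the log2 scale.

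**Figure D2:**
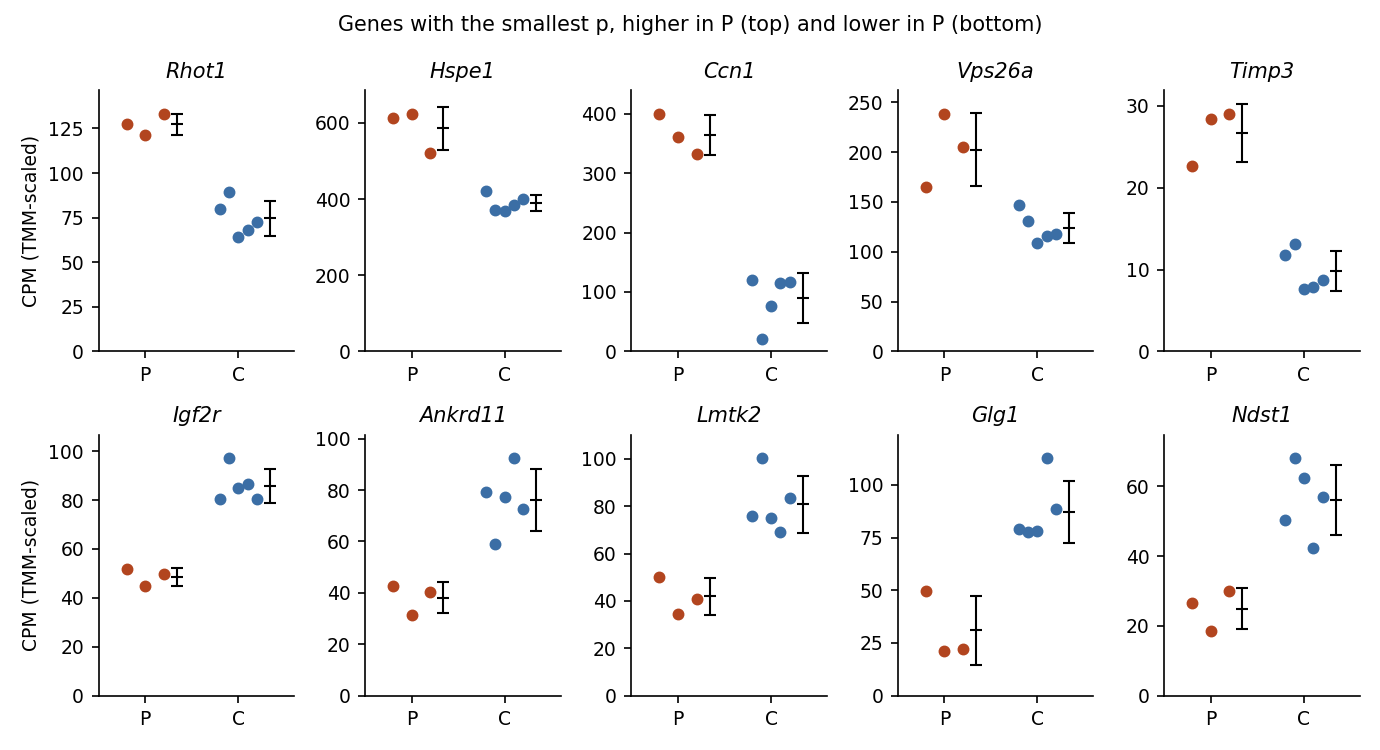
TMM-scaled CPM of 10 genes in each sample, P left and C right in every panel, with the mean and SD beside the points (3 P and 5 C samples). The top row shows Rhot1, Hspe1, Ccn1, Vps26a and Timp3, each with all P points above all C points, and the bottom row shows Igf2r, Ankrd11, Lmtk2, Glg1 and Ndst1, each with all P points below. Lack of overlap was a condition of the choice of these genes.

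Hspe1 encodes the small partner of the mitochondrial chaperonin Hspd1, and both genes share a start region from which they run in opposite directions. Hspe1 is the only gene of the heat-shock list whose P and C samples did not overlap, and its upstream sequence is shown for that reason. The 250 bases before its start (RefSeq, GRCm38.p6, chr1:55087898-55088147, plus strand) hold 2 matches, in capitals, to TTCNNGAA, an inverted pair of heat-shock factor units.
Hspe1 upstream region: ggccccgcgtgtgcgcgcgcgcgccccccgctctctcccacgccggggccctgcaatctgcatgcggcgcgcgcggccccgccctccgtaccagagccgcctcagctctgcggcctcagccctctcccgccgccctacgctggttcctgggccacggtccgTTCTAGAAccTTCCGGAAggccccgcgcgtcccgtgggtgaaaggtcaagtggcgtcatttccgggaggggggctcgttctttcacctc
The matches begin 89 and 79 bases before the start. The motif reads the same on both strands and stands in 7.17% of 32851 such windows of the mouse genome. Of 10 heat-shock list genes with a window, Hspe1, Hspd1 and Hsph1 held it, and the matches of Hspd1 are those of Hspe1 read from the other strand. The other inverted order, GAANNTTC, stands in 6.69% of all windows and in those of 6 of the 10 genes, Hspe1, Hspd1, Hspa1a, Hspa1b, Dnaja1 and Hspb1. A match is a description of the sequence, not of binding.

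Hspe1 had 613, 623 and 520.3 CPM in P1, P2 and P4, against 420.0, 370.0, 369.6, 385 and 401 CPM in C1L, C1N, C1R, C2R and C3R. The P mean was 585 ± 56.4 CPM (SD, n = 3) and the C mean 389 ± 21.6 (SD, n = 5), with a log2 difference of 0.59 ± 0.12 (SE; edgeR adjusted p = 0.668, DESeq2 adjusted p = 6.83e-05). The levels were even among cells, with at most 16.5% of a sample's counts in 1 cell, and blood cells alone gave a log2 difference of 0.65. Hspd1, named after its values were seen, had 1665, 1306 and 763 CPM in P1, P2 and P4, against 768 to 1482 CPM in the C samples. The groups overlapped for Hspd1. Processed copies of Hspe1 exist elsewhere in the mouse genome, and the rule by which shared reads were counted was not stated.

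The heat-shock and chaperone list had mostly positive differences. Of 13 genes tested, 11 had a positive difference, 3 an unadjusted p under 0.05 in the direction of P (3.34% of all genes) and 0 in the other (3.87% of all genes), and the median log2 difference was 0.45 against 0.00 over all genes. Dnajb1, a co-chaperone of Hsp70, had 197, 163 and 91.9 CPM in P1, P2 and P4, against 56.4, 47.6, 125, 49.7 and 68.7 CPM in C1L, C1N, C1R, C2R and C3R. C1R stood above the other C samples, and its 2 lung cells alone had 1461 CPM before scaling. Without these 2 cells the log2 difference was 1.32, against 1.12 ± 0.34 (SE) with them. Dnaja1, of the same co-chaperone family, had 391 to 529 CPM in P samples and 273 to 428 CPM in C samples. Hsp90aa1, an inducible form of Hsp90, had 1490.3 to 2616 CPM in P samples and 1315 to 1959.6 CPM in C samples. The list's median was 0.21 in blood cells alone, with 1 of 13 genes at an unadjusted p under 0.05, near the 8.75% of all genes in blood.

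Fos led the immediate-early list. This transcription factor gene, which is switched on within minutes of stimulation, had 210.4, 462 and 613 CPM in P1, P2 and P4, against 41.5, 95.9, 177, 204 and 199 CPM in C1L, C1N, C1R, C2R and C3R. The groups did not overlap, but P1 stood only just above C2R. The log2 difference was 1.58 ± 0.47 (SE; edgeR adjusted p = 0.668), and 46.5% of the Fos counts of P4 lay in 1 cell. Dusp1, a phosphatase of the same response, had 101, 65.1 and 101 CPM in P samples and 16.2 to 92.1 CPM in C samples. Of 14 list genes tested, Fos alone had an unadjusted p under 0.05, near the 7.21% of all genes. A positive difference was seen for 10, and the median was 0.50 (0.20 in blood cells alone and 0.17 without P4). Fos lay the other way in lung cells alone, with a log2 difference of -2.21, where the 2 lung cells of C1R had 2381 CPM and the 6 of C2R 757 CPM before scaling. The 2 lung cells of C1R had a median of 14.8% mitochondrial counts, against sample medians of 2.51% to 4.09% over all cells, and the part of this in the result was not tested.

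Of genes with at least 20 CPM and no overlap, Igf2r, Ankrd11, Lmtk2, Glg1 and Ndst1 were the 5 with the smallest p that were lower in P. Igf2r, the receptor that sends mannose-6-phosphate enzymes to lysosomes, had 51.7, 44.7 and 49.6 CPM in P1, P2 and P4. It had 80.3, 97.0, 84.7, 86.4 and 80.4 CPM in C1L, C1N, C1R, C2R and C3R. The choice required the groups not to overlap, and the log2 difference was -0.82 ± 0.15 (SE; edgeR adjusted p = 0.668, DESeq2 adjusted p = 0.000576). Glg1, a Golgi sialoglycoprotein, had 49.7, 21.1 and 22.2 CPM in the P samples, against 77.8 to 113 CPM in the C samples, and the log2 difference of -1.49 ± 0.31 (SE) was the largest of the 5. Ankrd11, a chromatin regulator, averaged 38.2 ± 5.95 CPM in P samples (SD, n = 3) and 76.1 ± 12.1 in C samples (SD, n = 5). Lmtk2, a membrane kinase, averaged 41.9 ± 7.71 CPM in P and 80.8 ± 11.9 in C samples, and Ndst1, an enzyme of heparan sulfate synthesis, 24.9 ± 5.89 CPM in P and 56.0 ± 10.0 in C samples. Lmtk2 differed by 0.12 on the log2 scale in lung cells alone, a change of sign.

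These 5 genes all have long transcripts, and the genes lower in P at an unadjusted p under 0.05 were long as a group. The longest annotated transcript of the 5 genes measures 6478 to 8887 bases, against 774 to 4722 bases for the 5 leading genes higher in P. Among 6815 genes of at least 20 CPM with a length, the median was 5518 bases for 225 genes lower in P at an unadjusted p under 0.05, 2906 bases for 333 genes higher and 3037 bases for all. The genes were put in 5 length classes of about equal size. In the longest length class (4927 to 27908 bases), 131 genes were lower and 36 higher at that p, with a median log2 difference of -0.13. In the shortest length class (204 to 1727 bases), 9 were lower and 59 higher, with a median of 0.10. P2 stood apart in this: the longest length class lay 0.25 below the mean of the 8 samples in P2, on the log2 scale, and between -0.01 and 0.11 in the other samples. In blood cells alone, which leave P2 out, the median of the longest length class was 0.01. When each sample's trend with length was put in the edgeR fit, an alternative added after seeing the data, 57 genes of the longest length class were lower and 89 higher, and Igf2r, Ankrd11, Lmtk2, Glg1 and Ndst1 kept log2 differences of -0.59, -0.79, -0.75, -1.36 and -1.05. The trend was taken from these same counts, so a smaller difference by length in that fit is built in. What in cells or libraries goes with length was not tested.

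**Figure D3:**
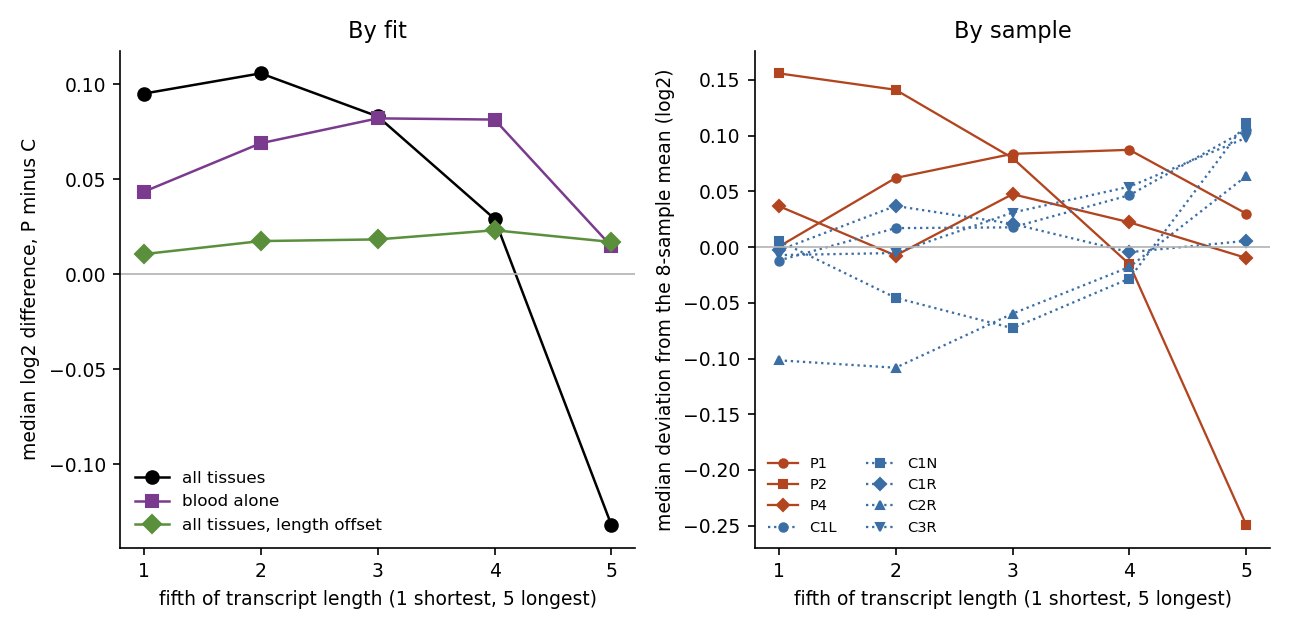
Median log2 difference, P minus C, of genes in 5 equal groups of transcript length (left, by fit) and each sample's median deviation from the mean of the 8 samples on the log2 scale (right, P samples solid, C samples dotted). The all-tissue line drops to -0.13 in the longest length class, and P2 falls to -0.25 while the other samples stay between -0.01 and 0.11 there. The length offset was fitted to these same counts, so its flat line is built in.

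Pigment genes, the program that defines these cells, showed no P against C difference that passed. Of the 12 pigment genes outside the rule, 0 had an unadjusted p under 0.05 (against 7.21% of all genes), and their median log2 difference was 0.12. Pmel had 7572, 8461 and 8671 CPM in P1, P2 and P4, against 9429, 6561, 9450.1, 9021 and 3409 CPM in C1L, C1N, C1R, C2R and C3R, where C3R was low. Pmel is a gene of the rule, and its levels are a description. Tyr, the enzyme that starts melanin synthesis, averaged 954 ± 124 CPM in P samples and 796 ± 173 in C samples (SD, n = 3 and 5). The melanosome transport genes Rab27a (177 to 204 CPM in P, 106 to 342 CPM in C) and Mlph (253 to 334 CPM in P, 311 to 346 CPM in C) overlapped, as did Rab38 (628 to 901 CPM in P, 410.5 to 791 CPM in C), which sorts melanosome enzymes. Mitf averaged 199 ± 75.7 CPM in P and 202 ± 63.1 in C samples. Sox10 averaged 295 ± 129.8 CPM in P and 268 ± 34.2 in C samples, with 443 CPM in P4. Ednrb, an endothelin receptor of the melanocyte lineage, had 1.67, 0.00750 and 31.1 CPM in P1, P2 and P4, against 0.0506 to 2.03 CPM in C samples, and 98.8% of the P4 counts lay in 1 cell. Before scaling, Ednrb had 0.0488 CPM in cultured B16F10 cells and 0.0389 to 0.138 CPM in CTC of C samples. It had 623 CPM in WBC of naive mice and 748 CPM in DP cells of P samples under the threshold, so here it does not mark pigment cells.

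Of 14 tested mesenchymal genes, Vim alone had an unadjusted p under 0.05, near the 7.21% of all genes. It encodes the intermediate filament vimentin and had 2229.8, 1954 and 2007 CPM in P1, P2 and P4, against 1291, 1415, 1629, 1484 and 1652 CPM in C1L, C1N, C1R, C2R and C3R. The groups did not overlap (log2 difference 0.47 ± 0.13 SE, edgeR adjusted p = 0.668, DESeq2 adjusted p = 0.0127), and blood cells alone gave 0.59. The other 13 tested genes of the list had no unadjusted p under 0.05, and the median of the list was -0.05. For 1 of these genes the P samples all lay below the C samples. Krt19, an epithelial keratin, was below the filter, with at most 0.221 CPM in a P sample and 0.00795 in a C sample, before scaling.

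Cell-cycle genes lay on both sides. Tpx2, which builds the spindle, had 198, 194 and 209 CPM in P1, P2 and P4, against 136, 108, 128, 163 and 165 CPM in C1L, C1N, C1R, C2R and C3R, with no overlap (log2 difference 0.52 ± 0.16 SE, edgeR adjusted p = 0.668). Hmmr, a spindle-associated receptor, had 67.9 to 93.2 CPM in P samples and 38.9 to 63.6 CPM in C samples. Kif20a, a mitotic kinesin, and Ccnb2, a mitotic cyclin, were also higher in P at an unadjusted p under 0.05, with overlap. The kinetochore genes Cenpe (40.7 to 41.6 CPM in P, 44.6 to 74.6 CPM in C) and Cenpf (33.3 to 45.3 CPM in P, 35.5 to 95.6 CPM in C), named after their values were seen, lay the other way, Cenpe without overlap and Cenpf with it. Their transcripts measure 7910 and 11130 bases, and their unadjusted edgeR p was 0.0429 and 0.0474, and 0.244 and 0.258 with the length offset. In all, 4 of 22 mitosis genes were higher and 2 lower at that p, against 3.34% and 3.87% of all genes, and the median was 0.18. Mki67, a marker of cycling cells, had 115, 113 and 94.2 CPM in P samples and 72.9 to 181 CPM in C samples.

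For DNA replication the count was 2 of 24 genes higher, Pola1 and Tyms, and 0 lower, against 3.34% and 3.87% of all genes. The median was -0.20, with 5 of 24 positive differences, and 0.09 without P4, with 18 of 24. The P and C samples did not overlap for 1 gene of the list higher in P and 1 lower. Pola1, the catalytic subunit of DNA polymerase alpha, had 48.0, 56.3 and 48.3 CPM in P samples and 30.8 to 39.2 CPM in C samples, and the groups did not overlap. Tyms, which makes thymidylate, had 146 to 181 CPM in P and 108 to 150.4 CPM in C samples, with overlap. Mcm2, of the replicative helicase, averaged 490.2 ± 183 CPM in P and 561 ± 154 in C samples.

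Of 14 glycolysis genes, Pgam1 was higher and Hk2 lower in P at an unadjusted p under 0.05 (3.34% and 3.87% of all genes), and the median was 0.16 (-0.13 in blood cells alone). Pgam1, a mutase, had 1361 to 1634 CPM in P and 1096 to 1355 CPM in C samples. The P range lay just above the C range. Hk2, the hexokinase of fast-growing cells, had 102, 98.0 and 83.3 CPM in P1, P2 and P4, against 248, 104, 99.5, 216 and 182 CPM in C1L, C1N, C1R, C2R and C3R, where C1N and C1R lay near the P samples. Ldha, which makes lactate, averaged 6979.5 ± 707 CPM in P and 6534 ± 759 in C samples. Of 16 hypoxia genes, P4ha1, a collagen prolyl hydroxylase, was higher at that p, with 156 to 298 CPM in P and 93.9 to 195 CPM in C samples, and Vegfa had 4.18 to 9.93 CPM in P and 2.31 to 15.4 CPM in C samples. None of 20 cytosolic ribosomal genes had an unadjusted p under 0.05; Rps3 averaged 1439 ± 95.5 CPM in P and 1311 ± 84.5 in C samples.

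Mitochondria-encoded genes all had positive differences. Of 13 genes, mt-Nd1, mt-Nd2 and mt-Co1 were higher at an unadjusted p under 0.05 (3.34% of all genes), and the median was 0.30. These genes encode subunits of respiratory complexes I and IV. Together the 13 genes held 34781, 41006 and 43933 CPM in P1, P2 and P4, against 27609.5 to 38226 CPM in C samples, before scaling, so P1 lay within the C range. The median share of mitochondrial counts per cell was 3.36%, 3.85% and 4.09% in P1, P2 and P4, against 2.996%, 3.60%, 3.09%, 2.51% and 2.97% in C1L, C1N, C1R, C2R and C3R. The share can also move with RNA quality, whose part was not tested. The nuclear-encoded respiratory genes had a median of 0.14, with 0 of 17 at an unadjusted p under 0.05.

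RNA typical of host cells varied from sample to sample within both groups. The median over all P cells was 1.116 CPM, and over all C cells 0.932 CPM, for the 5 leukocyte markers (Ptprc, Cd52, Cd53, Laptm5 and Tyrobp), and 24 of the 262 cells had no count of them. In the sums, before scaling, these markers reached 28.9, 70.3 and 257 CPM in P1, P2 and P4, and 12.2 to 189 CPM in C samples, against 0.528 CPM in cultured B16F10 cells and 6220.0 CPM in WBC of naive mice. Ptprc, which encodes CD45, had 5.52, 7.78 and 101 CPM in P1, P2 and P4, and 2.44 to 25.8 CPM in C samples. P4 had the highest level of both, and 62.8% of its Ptprc counts lay in 1 cell.

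Class II antigen presentation genes showed the same unevenness. H2-Aa had 12.6, 8.22 and 563 CPM in P1, P2 and P4, against 107, 252, 105, 153 and 18.7 CPM in C1L, C1N, C1R, C2R and C3R. Cd74, the class II chaperone, had 36.3, 40.9 and 1699 CPM in P1, P2 and P4, against 56.0 to 528 CPM in C samples. P4 lay above all C samples, and P1 and P2 below all of them, so the P group spanned the C group. Without P4 the log2 difference of H2-Aa was -3.61, of H2-Ab1 -3.65 and of Cd74 -2.75, against 0.61, 0.08 and 1.19 with it. A single cell held 79.8%, 52.6% and 66.0% of the summed counts of the 4 class II genes in P1, P2 and P4, and 38.8% to 69.2% in C samples.

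Cells with at least 50 CPM over H2-Aa, H2-Ab1, H2-Eb1 and Cd74 were counted in each sample. They were 3 of 45 in P1 (6.67%, exact 95% binomial interval 1.40 to 18.3), 4 of 31 in P2 (12.9%, 3.63 to 29.8) and 5 of 15 in P4 (33.3%, 11.8 to 61.6). They were 6 of 30 in C1L (20%), 4 of 12 in C1N (33.3%), 3 of 23 in C1R (13.0%), 6 of 45 in C2R (13.3%) and 5 of 61 in C3R (8.20%). The mean share was 17.6% ± 13.9 in P samples (SD, n = 3) and 17.6% ± 9.76 in C samples (SD, n = 5), a difference of 0.0530 points (two-sided exact permutation p = 0.857; the smallest p this design allows is 0.0357). Of these cells, pooled over samples, 10 of 12 in P and 18 of 24 in C also had at least 50 CPM of leukocyte markers. Among all tumor-high cells, 14 of 91 in P and 27 of 171 in C had that level. No doublet caller was run, and the part of wells with more than 1 cell was not tested.

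**Figure D4:**
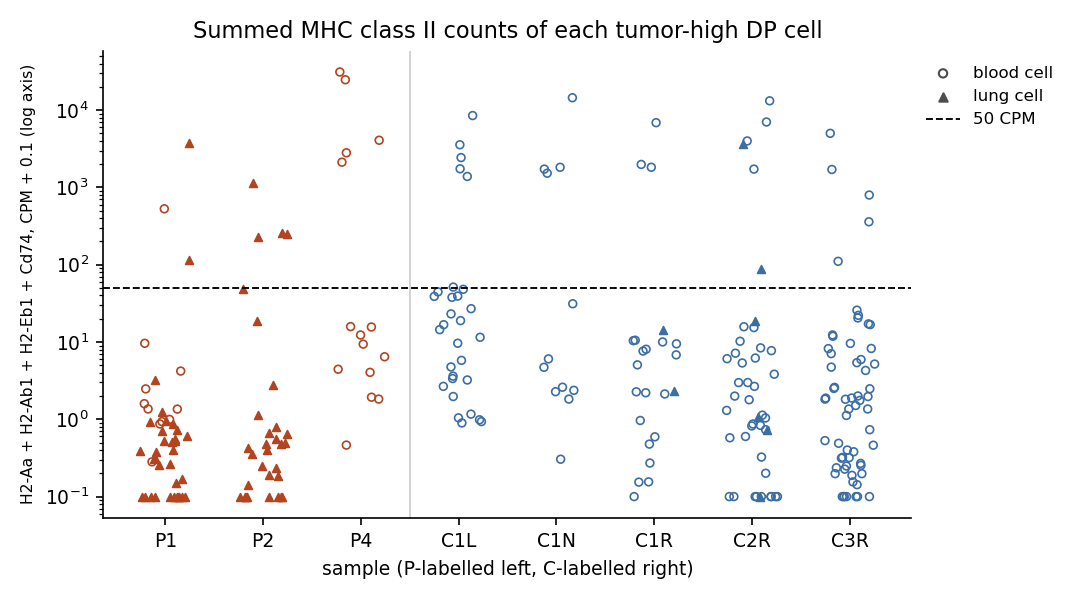
Summed CPM + 0.1 of H2-Aa, H2-Ab1, H2-Eb1 and Cd74 (log axis) in each of the 262 tumor-high DP cells, by sample, with open circles for blood cells, filled triangles for lung cells and a dashed line at 50 CPM. Every sample has 3 to 6 cells above the line and a larger number below it.

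Markers of single host cell types followed a few cells. Ms4a1, the B-cell antigen CD20, had 3.25, 0.00375 and 311 CPM in P1, P2 and P4, against 2.71 to 38.7 CPM in C samples, and 76.6% of the P4 counts lay in 1 cell. Pf4, a platelet chemokine, had 5.69, 17.3 and 50.9 CPM in P1, P2 and P4, against 0.793 to 14.9 CPM in C samples. Csf1r, the macrophage growth factor receptor, had 3.04 to 8.58 CPM in P and 0.0598 to 19.9 CPM in C samples. C1qc, of the monocyte and macrophage list, had a log2 difference of 2.30, with overlap. A single cell held 95.4%, 93.8% and 93.6% of its counts in P1, P2 and P4. Chil3, a gene of the alveolar macrophage list, had 0.0147 to 0.443 CPM in P samples and 0.0905, 52.8, 14.02, 12.6 and 0.276 CPM in C1L, C1N, C1R, C2R and C3R, with 99.8% of the C1N counts in 1 cell. Chil3 also had 232 CPM in WBC of naive mice, before scaling, so it does not mark alveolar macrophages alone. The C1N cells all came from blood, and Car4, of the same list, had 0.00283 CPM in C1N. Of 7 tested genes of the list, 2 had a positive difference. Treml1, a platelet receptor, had at most 0.00490 CPM in P samples and 0.00171 to 3.07 CPM in C samples, and Mmp9, a neutrophil protease, at most 0.00490 CPM in P and 4.17 CPM in C samples. Lung epithelial markers were near 0, with 246 of 262 cells at 0 counts and sums, before scaling, of 0 to 3.40 CPM in P and 0 to 0.331 CPM in C samples.

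Of the interferon genes, Ifih1, a sensor of double-stranded RNA, had 6.33, 3.82 and 3.71 CPM in P1, P2 and P4, against 8.36 to 18.6 CPM in C samples, without overlap (log2 difference -1.39 ± 0.52 SE, edgeR adjusted p = 0.668), and 1 cell held 99.3% of the counts in P2 and in P4. It was 1 of 21 interferon genes at an unadjusted p under 0.05, near the 7.21% of all genes, and the median was 0.12. Gbp2, of the same list, lay the other way, also without overlap. It had 7.27, 11.7 and 34.9 CPM in P1, P2 and P4, against 0.0113 to 7.07 CPM in C samples. The log2 difference was 2.52 ± 1.47 (SE; edgeR adjusted p = 0.780), and 99.8% of the P4 counts lay in 1 cell. Cd274, the ligand PD-L1, had 9.63, 8.15 and 96.8 CPM in P1, P2 and P4, against 3.41 to 19.3 CPM in C samples, so P4 alone stood above. Without P4 its log2 difference was -0.12, against 1.98 ± 0.80 (SE) with it. Cd276, another checkpoint ligand, had 14.5, 11.8 and 25.2 CPM in P samples and 21.5 to 44.9 CPM in C samples. The class I genes overlapped: B2m had 623 to 1103 CPM in P and 416 to 952 CPM in C samples, and H2-K1 92.3 to 399.8 CPM in P and 101 to 253 CPM in C samples.

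Fewer genes were seen per cell in P than in C at equal depth. With each cell thinned to 100000 counts, the median cell showed 6137, 5128 and 4491 genes in P1, P2 and P4, against 7072.5, 6949.5, 6165, 6561 and 6461 genes in C1L, C1N, C1R, C2R and C3R. The P samples lay below all C samples, though P1 was only just below C1R. The means were 5252 ± 830.0 genes in P (SD, n = 3) and 6642 ± 369.7 in C (SD, n = 5), a difference of -1389.8 (two-sided exact permutation p = 0.0357, the smallest this design can give, and 0.107 after Benjamini-Hochberg adjustment over the 3 permutation tests). In blood cells alone the difference was -1098.4 (exact permutation p = 0.381), with P1 at 6621 genes inside the C range and P4 at 4491 below it. The median cell held 26.7, 18.4 and 29.5 Mcounts in P1, P2 and P4, against 20.04, 28.9, 15.98, 16.2 and 18.2 Mcounts in C1L, C1N, C1R, C2R and C3R (exact permutation p = 0.250). In blood cells alone the groups did not overlap in depth, with 44.2 and 29.5 Mcounts in P1 and P4, against 16.2 to 28.9 Mcounts in C samples. The exact permutation p was 0.0952, the smallest that the blood samples allow.

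Blood cells alone gave no call either. In edgeR's test, 0 of 13205 genes (0%) had an adjusted p under 0.05, with 1156 genes (8.75%) at an unadjusted p under 0.05, 454 (3.44%) higher and 702 (5.32%) lower in P. The samples did not overlap for 750 genes higher in P (5.68%) and 953 lower (7.22%). With 2 P samples in place of 3, a gene meets this more easily, so these shares cannot be set against those of both tissues. DESeq2 called 60 genes higher (0.454%) and 509 lower (3.85%). Rhot1 had a log2 difference of 1.01 in blood, against 0.77 with both tissues, with an adjusted edgeR p of 0.282. Its level was 166 CPM in blood cells and 96.1 CPM in lung cells of P1, before scaling. Igf2r, Lmtk2 and Glg1 had blood differences of -0.77, -0.84 and -1.32. Ankrd11 had -0.57, and its groups overlapped in blood, with 61.0 CPM in P1 and 58.7 CPM in C1N. Ndst1 had -0.64, also with overlap, at 42.0 CPM in P1 and 38.5 CPM in C2R. With P1 left out, the 15 blood cells of P4 stood alone against the 5 C samples, and edgeR called 401 genes, 81 higher and 320 lower, on the assumption that P4 varies as the C samples do.

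Some list medians differed between both tissues together and blood alone. The hypoxia list had a median log2 difference of 0.22 with both tissues, -0.16 in blood alone and -0.02 without P4, and the interferon list 0.12 and -0.40. The mitosis list had 0.18 and 0.22, and the 12 pigment genes outside the rule 0.12 and 0.09. Among lists of at least 8 tested genes, the highest medians were 1.53 and 2.07, for 10 B-cell genes. Their summed level was 10.9, 3.91 and 1156 CPM in P1, P2 and P4, against 13.0 to 372 CPM in C samples, before scaling, so P4 alone stood above. A positive difference was seen for 7 of the 10 genes with P4 and for 0 without it. The pan-leukocyte list had 0.77 and 1.19, with 14 of 16 positive differences, and -1.17 without P4, with 3 of 16. The monocyte and macrophage list had 0.92 and 0.42, with 16 of 17 positive differences, and 0.90 without P4, with 14 of 17. Its summed level was 127 to 459 CPM in P and 14.2 to 769 CPM in C samples, before scaling. The lowest medians were -1.29 and -1.43, for neural crest-like genes, whose summed level was 78.9 to 160.0 CPM in P and 50.5 to 144 CPM in C samples, before scaling. No gene of these B-cell, pan-leukocyte, monocyte and macrophage, and neural crest-like lists had an unadjusted p under 0.05 with both tissues.

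**Figure D5:**
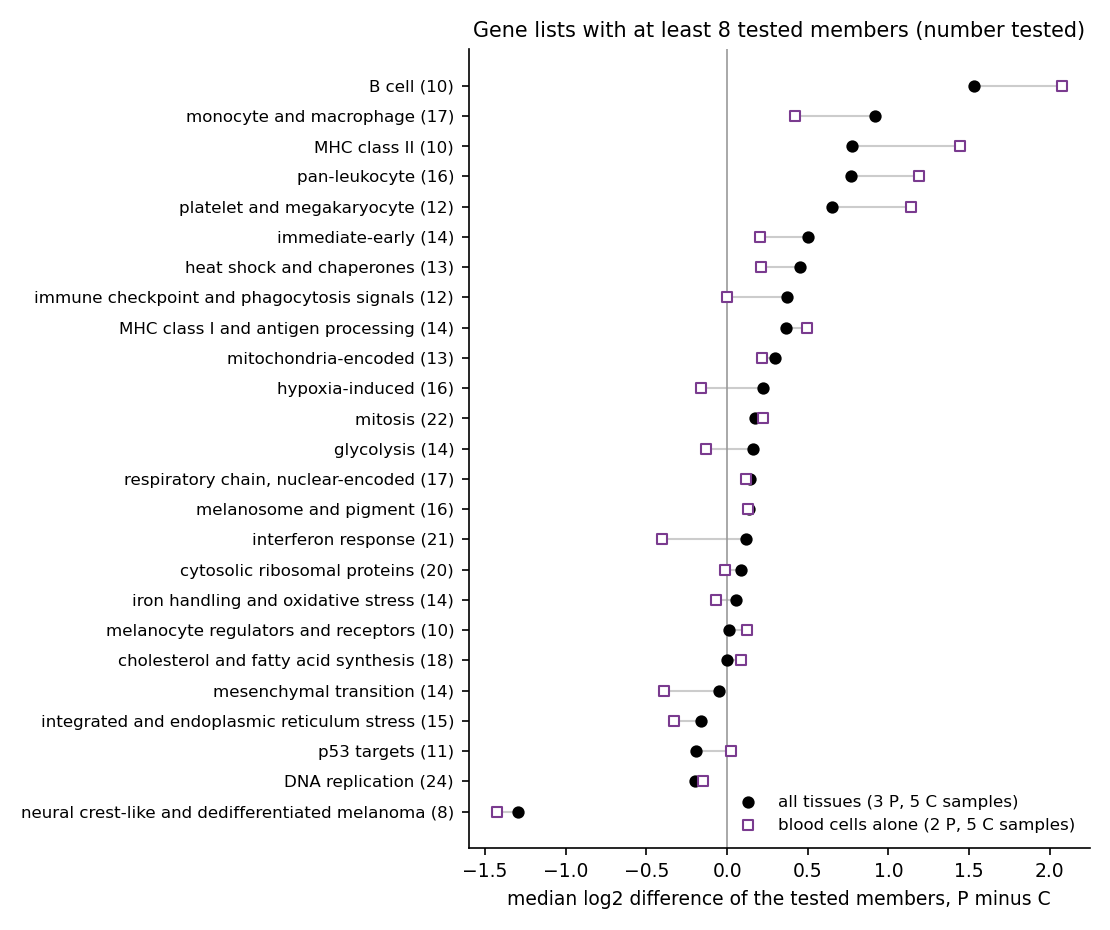
Median log2 difference, P minus C, of the tested members of each gene list with at least 8 of them (number in brackets), for both tissues together (filled circles) and blood cells alone (open squares). B-cell genes stand highest at 1.53 and 2.07, where P4 is the one P sample above the C samples and 0 of 10 genes are positive without it, and neural crest-like genes lowest at -1.29 and -1.43, and most lists of cell function lie between -0.5 and 0.5.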

How the data were processed

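The table holds whole-number counts of reads per gene and single cell, which the authors deposited for 648 cells and 21138 genes. Trim Galore, HISAT2, SAMtools, featureCounts, BWA and Picard, and the build mm10, are named per the submitters' processing notes; for their versions, and for how strand and shared reads were treated: not given in the sources used here. In tumor-high cells, deposited values of 2 outnumbered values of 1 by a factor of 3.34, so a count of 1 molecule or read cannot be read from them, and intervals cover counting error only.

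Counts were summed over the tumor-high DP cells of each sample and tested with edgeR 4.0.16 (quasi-likelihood, TMM scaling, filterByExpr, Benjamini-Hochberg adjustment; R 4.3.3), P against C with no covariate. CPM of sums are TMM-scaled unless said to be before scaling. Single values per sample were compared with two-sided exact permutation tests (SciPy 1.17.1). Thinning drew 100000 counts per cell. Transcript length is that of the longest basic transcript in GENCODE vM21. Scripts were tested on simulated data. Alternatives were DESeq2 1.42.0, limma 3.58.1 on per-cell log2(CPM + 1), other scalings, filters and thresholds, single tissues, and leaving out each sample.

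Genes were named by rule: those past the threshold, or, where fewer than 5 passed in a direction, the 5 with the smallest p, a mean of at least 20 CPM in the higher group and no overlap; up to 4 per gene list; and a fixed set of key genes. Not every gene so chosen is printed, and 1 of the key genes is not reported here. The members and lists were chosen with earlier results of these data known.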

Additional observations from a re-analysis of the deposited data

Results flagged for a closer look

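In 4 of 69 sets of the 5 C samples that were checked, 1 sample stood apart from the others by Dixon's criterion, which chance meets in about 1 of 20 such sets. Csf1r had 19.9 CPM in C2R, against 0.0598 to 4.87 CPM in the other C samples. Dnajb1 had 125 CPM in C1R, against 47.6 to 68.7 CPM in the others. Mki67 had 72.9 CPM in C1N, where the others had 163 to 181 CPM. Chil3 had 52.8 CPM in C1N, against 0.0905 to 14.02 CPM in the others.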

How the results depend on the processing

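The count of genes past an adjusted p of 0.05 was 0 with edgeR and stayed 0 under other scalings, rule thresholds, depth and host-RNA filters, the tissue term and the length offset. It was 126 with DESeq2, 143 with limma on per-cell values (all lower in P, where the median of all genes was -0.58) and 8 when these were centred on each sample's median, a setting added after seeing the data that moves the median of all genes to 0.30. Leaving out 1 sample gave 0 to 1 genes, the 1 being Ccn1 without C1N. In blood alone DESeq2 gave 569, edgeR with no filter 1 (Rasd2), and leaving out 1 sample 0 to 401, with 401 without P1 and 1 (Arhgap27) without P4. Genes at an unadjusted p under 0.05 numbered 929, against 1497 with no filter, 618 at a mean of at least 10 CPM, 2864 with limma and 2054 with limma centred.

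The class II share differed by -6.19 points at 20 CPM and by -7.80 to 5.54 points with 1 sample left out. The difference in genes per cell was -1098.4 in blood alone and -966 unthinned, and -1832 to -1009 with 1 sample left out, where the smallest p allowed is 0.0571 or 0.0952.

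Over 65 genes and 26 alternatives, 1668 values were computed. The sign differed in 116 of them, over 48 genes, and 26 of these, given below, had an unadjusted p under 0.05 in one of the fits compared. In 25 values the threshold was passed. In lung cells alone (8 C cells) these log2 differences were Timp3 -0.98, Lmtk2 0.12, Mlana -0.99, B2m -2.72, H2-K1 -2.02, Fos -2.21, Dnajb1 -1.98, Vim -0.21, Hk2 0.018, mt-Nd2 -0.42, mt-Co1 -0.44, Cd276 1.13, Cenpe 0.58 and Cenpf 0.75. With limma on per-cell values they were Hmmr -0.0015, Kif20a -0.17, Ccnb2 -0.42, Pola1 -0.28 and Tyms -0.47, and, centred, Ifih1 0.062. In cells with leukocyte genes under 50 CPM they were H2-Ab1 -3.48 and Chil3 0.51. With 1 sample left out the ranges were -3.61 to 1.18 for H2-Aa, -3.65 to 0.63 for H2-Ab1, -2.75 to 1.74 for Cd74 and -0.12 to 2.46 for Cd274, each lowest without P4. The cause was not tested.

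No paired analysis was possible because P and C samples share no replicate number that the labels tie to an animal or day. C2N could not be added, since it has 0 tumor-high cells. With 3 P samples, 1 of them without blood cells, the design limits what differences can be detected.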

Other observations

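Jun, a partner of Fos in the AP-1 transcription factor, and St3gal6, a sialyltransferase, were among the 8 genes past the threshold when limma was run on per-cell log2(CPM + 1) centred on each sample's median, and are named after their values were seen. Their log2 differences there were 2.18 and 1.58 (limma adjusted p = 0.0462). That setting moves the median of all genes to 0.30. For Jun, the edgeR fit on sums gave 0.80 ± 0.48 (SE; adjusted p = 0.782), with 77.0, 151 and 57.8 CPM in P1, P2 and P4, against 19.0 to 109 CPM in C samples. In blood alone it gave -0.06. For St3gal6 the edgeR fit gave 0.68 (adjusted p = 0.668), with all P samples above all C samples. The other genes were Ccn1, Dusp1, Fos and Hspe1, higher in P, and Ankrd11 and Glg1, lower in P.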
